A study of Mus musculus with 29 samples.

Results

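Matricellular proteins are secreted into the extracellular matrix without forming its fibres, and they tune how cells attach to collagen and how growth factors reach their receptors. The members followed here were Smoc1, Smoc2, Sparc and Sparcl1 of the SPARC family, the thrombospondins Thbs1, Thbs2 and Thbs4, periostin (Postn), and the tenascins Tnc and Tnxb. They were the 10 listed symbols, all found as rows among the 24770 gene symbols of the count table, and they were taken by symbol. The list of symbols was drawn up with earlier results of these data known. Bulk RNA-seq was available for brown adipose tissue (BAT) of 3 control, 4 calorie restriction (CR), 4 exercise (EX) and 4 combined (CREX) mice, and for gastrocnemius skeletal muscle (SkM) of 4 control, 3 CR, 4 EX and 3 CREX mice. All mice were WT males of the C57BL/6J strain, and the interventions began at 8 weeks of age and lasted 8 weeks. Control mice were sedentary and ate freely, CR mice received a food allowance that was lowered stepwise, EX mice ran on a treadmill, and CREX mice (labelled CE) received both. All tissues were taken after a short fast and a day after the last run, and the labels do not say which BAT and SkM libraries came from the same mouse.

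Matricellular proteins are made mostly by fibroblasts, mural and endothelial cells and, in some cases, by parenchymal cells, and most are low in resting adult tissue and rise with growth, load or injury. Sparc binds collagen and is needed for normal fibril assembly, Postn and Tnxb also act on collagen fibrils, and the thrombospondins bind integrins, Cd36 and Cd47, with Thbs1 known as an activator of latent TGF-β. In adipose tissue Sparc is known for limiting expansion of the depot, and in muscle Thbs4 and the tenascins are known from the matrix between fibres and at tendon junctions.

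Library totals were 21047242 to 24919377 counts in BAT and 23050918 to 23425284 in SkM, so that 3 counts correspond to 0.120 to 0.143 and 0.128 to 0.130 normalised CPM, the counts scaled to a common library size. The summed CPM of 10 brown adipocyte markers was 11197 to 16499 in BAT against 119 to 279 in SkM, and that of 10 muscle fibre markers was 104201 to 178344 in SkM. In BAT the muscle fibre sum ran from 2.92 to 5801 CPM. Some libraries stood apart: BAT EX replicate 3 for 6 of the 10 members, and SkM CREX replicates 2 and 3, whose summed slow fibre markers were 106 and 48.4 CPM against 403 to 2138 in the control, CR and EX libraries of SkM. Results that rest on them are given with and without them.

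The start-site regions of the members on which the results turn are shown first, since Sparc changed in every CR comparison while Thbs2, Thbs4, Postn and Tnc were high together in 1 library. The sequences are the 250 bases before a RefSeq start site on GRCm38.p6, printed 5′ to 3′ on the strand of the gene. Capitals mark matches on either strand. The letters searched were TATAAA for a TATA box, CCAAT for a CCAAT box, GGGCGG for a GC box, GGAGGNGG for a GGA box, TGANTCA for an AP-1 site, GGAATG for a TEAD site and CACGTG for an E-box. RefSeq entries were at hand for Sparc, Thbs2, Thbs4, Postn, Tnc and Tnxb. Smoc1, Smoc2, Sparcl1 and Thbs1 are named without a sequence.
Sparc, chr11:55420081-55420330, minus strand: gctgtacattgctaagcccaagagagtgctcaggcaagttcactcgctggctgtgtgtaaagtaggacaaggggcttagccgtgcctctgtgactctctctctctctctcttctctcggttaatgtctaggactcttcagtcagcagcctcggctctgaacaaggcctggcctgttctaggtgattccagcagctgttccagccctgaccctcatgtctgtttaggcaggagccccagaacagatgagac
Thbs4, chr13:92794819-92795068, minus strand: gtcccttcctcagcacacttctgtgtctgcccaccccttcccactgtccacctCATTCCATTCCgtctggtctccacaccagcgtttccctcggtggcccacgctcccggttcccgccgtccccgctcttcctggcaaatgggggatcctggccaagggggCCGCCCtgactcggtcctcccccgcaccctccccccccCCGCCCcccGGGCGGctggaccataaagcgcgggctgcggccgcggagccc
Thbs2, chr17:14694263-14694512, minus strand: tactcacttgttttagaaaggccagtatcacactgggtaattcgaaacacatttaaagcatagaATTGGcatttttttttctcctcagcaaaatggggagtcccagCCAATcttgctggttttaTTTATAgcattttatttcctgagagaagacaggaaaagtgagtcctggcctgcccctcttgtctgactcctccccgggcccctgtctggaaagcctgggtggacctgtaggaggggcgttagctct
Postn, chr3:54360857-54361106, plus strand: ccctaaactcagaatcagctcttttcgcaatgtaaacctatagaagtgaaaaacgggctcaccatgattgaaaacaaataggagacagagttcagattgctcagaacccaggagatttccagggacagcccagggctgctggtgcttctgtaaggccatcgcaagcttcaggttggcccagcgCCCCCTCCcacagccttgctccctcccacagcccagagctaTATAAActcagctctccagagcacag
Tnc, chr4:64047016-64047265, minus strand: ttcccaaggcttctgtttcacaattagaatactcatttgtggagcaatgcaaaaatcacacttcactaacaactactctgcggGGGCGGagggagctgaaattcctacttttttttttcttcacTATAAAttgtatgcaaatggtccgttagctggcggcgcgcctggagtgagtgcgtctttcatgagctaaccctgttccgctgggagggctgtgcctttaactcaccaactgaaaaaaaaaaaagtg
None of the searched motifs was found in the Sparc window. That window lies before the RefSeq start site but inside the GENCODE span of the gene, which reaches chr11:55423183. The region before the GENCODE start was not searched. The Thbs4 window was 70.8% G and C, held 3 GC boxes and 2 overlapping TEAD sites, and differed in this from the Tnc window, with 44.8% G and C, a TATA box at position -126 and a GC box at -167. The Postn window held a TATA box at -26 and a GGA box at -67, and the Thbs2 window held a TATA box on the opposite strand at -126 and 2 CCAAT boxes. Tnc and Postn each have another RefSeq start site, whose windows are not printed. The other Tnc window was 51.2% G and C, with a TATA box at -205 and a GC box at -246. The other Postn window held none of the motifs. Over all 32851 windows of this length, 12.4% held a TATA box, 33.8% a CCAAT box, 32.7% a GC box, 20.4% a GGA box, 6.75% an AP-1 site, 12.6% a TEAD site and 6.02% an E-box. These are matches of letters only.

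In control mice the 2 tissues carried different sets of these genes. Levels between genes are given as CPM per kb of exons, and the 2 tissues were scaled separately for these values. In control BAT the order was Sparc at 139.8 ± 9.79 (SD, n = 3), Sparcl1 at 40.5 ± 2.24, Postn at 25.5 ± 1.15, Smoc1 at 15.2 ± 2.35, Smoc2 at 8.29 ± 0.256 and Tnxb at 3.79 ± 0.386 CPM per kb. The lowest 4 of BAT were Thbs1 at 0.559 ± 0.0517, Tnc at 0.390 ± 0.205, Thbs2 at 0.312 ± 0.119 and Thbs4 at 0.0435 ± 0.0197 CPM per kb. The ranges of Tnc and of both its neighbours overlapped, so their order was not resolved. In control SkM, Sparcl1 at 48.2 ± 2.71 (SD, n = 4) and Sparc at 45.0 ± 4.76 CPM per kb led with overlapping ranges. Smoc2 at 17.4 ± 1.71, Thbs4 at 12.1 ± 2.17 and Tnxb at 4.80 ± 0.659 CPM per kb followed. Postn at 1.04 ± 0.307, Thbs2 at 0.676 ± 0.123, Thbs1 at 0.422 ± 0.0880, Smoc1 at 0.170 ± 0.109 and Tnc at 0.0682 ± 0.0299 CPM per kb were the lowest in SkM, with overlapping ranges of Postn and Thbs2 and of Smoc1 and Tnc.

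**Figure D1:**
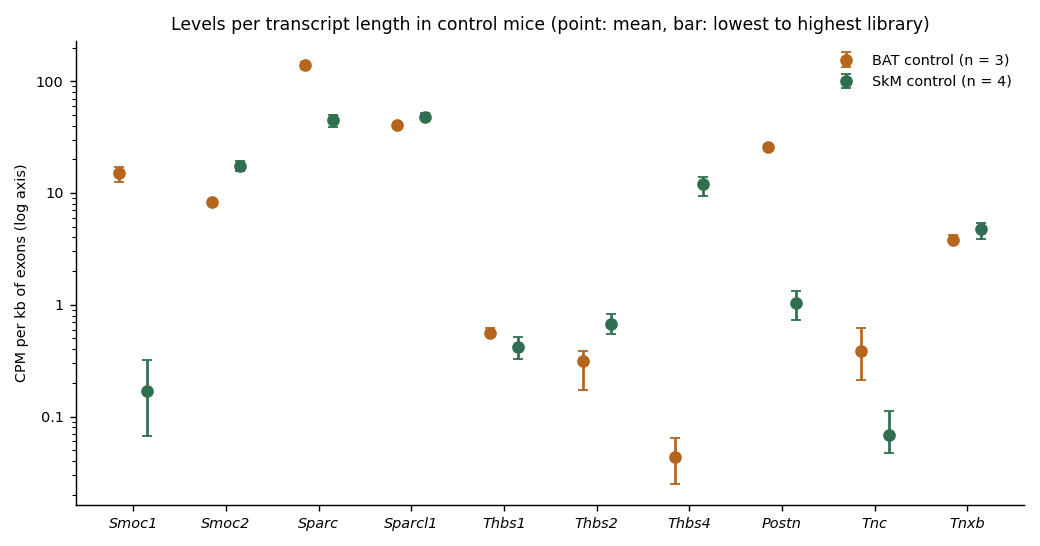
Level of each matricellular gene in control mice, as CPM per kb of exons on a log axis, with each tissue scaled separately. Points are group means (3 BAT and 4 SkM libraries) and bars run from the lowest to the highest library. Smoc1 and Postn stand higher in BAT and Thbs4 higher in SkM, while the points of both tissues lie close together for Sparcl1 and Thbs1.

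Tested on a common scale, 8 of the 10 members differed in level between control BAT and control SkM, against 60% of the 13797 genes tested (called in edgeR at an adjusted p below 0.05 with more than a 1.5-fold change), so that such a difference was common in these 2 tissues. Smoc1, a basement membrane protein described as an antagonist of BMP signalling, had 44.1, 59.9 and 55.8 CPM in control BAT and 1.11, 0.233, 0.409 and 0.621 CPM in control SkM. This was 73.8-fold higher in BAT (log2 difference 6.21 ± 0.28 SE, edgeR adjusted p = 2.03e-08). Postn was 20.4-fold higher in BAT (4.35 ± 0.17, edgeR adjusted p = 1.06e-09). Tnc and Sparc were also higher in BAT, by 2.23 ± 0.40 and 1.37 ± 0.11 on the log2 scale. Thbs4, a pentameric thrombospondin of tendon and muscle, was the reverse, with 3, 2 and 5 counts in control BAT against 724 to 964 counts in control SkM. Its level per library total was 266 times higher in SkM, with a 95% exact interval of 144 to 555 that covers counting error only. Smoc2 (-1.34 ± 0.10), Thbs2 (-1.39 ± 0.26) and Tnxb (-0.61 ± 0.12) were lower in BAT on the log2 scale. The call of Tnxb was lost without BAT control replicate 2 or 3 or SkM control replicate 4, where its value lay between -0.53 and -0.71 over all omissions. Sparcl1 differed by -0.52 ± 0.09 (edgeR adjusted p = 0.000162), below the fold minimum, and Thbs1 by 0.13 ± 0.19 (edgeR adjusted p = 0.549).

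CR in sedentary mice changed 5 of the 9 members that could be tested in BAT, against 10.7% of the 13323 genes tested. Smoc1 rose, and Smoc2, Sparc, Thbs1 and Tnc fell. The median log2 fold change of the 9 members was -0.49, beside 0.00 for all genes. Smoc1 had 117, 115, 96.6 and 122 CPM in the CR libraries against 44.1, 59.9 and 55.8 in control. All CR libraries were above all control libraries. The rise was 2.12-fold (log2 1.08 ± 0.12 SE, edgeR adjusted p = 0.000354).

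Smoc2, the closest relative of Smoc1 and likewise a calcium-binding protein of the matrix, moved the other way in BAT. It had 11.9, 10.01, 10.1 and 10.7 CPM under CR against 25.8, 25.4 and 24.3 CPM in control. The groups were far apart with little spread within either, and the fall was 2.36-fold (-1.24 ± 0.08, edgeR adjusted p = 2.31e-05). Sparc, the most abundant member of BAT, had 247, 217, 253 and 223 CPM under CR against 405, 384 and 352 CPM in control. It fell 1.61-fold without overlap (-0.69 ± 0.08, edgeR adjusted p = 0.000314). Its relative Sparcl1 (hevin), which is known from vessels and synapses, had 82.1 to 99.5 CPM under CR against 105.2 to 117.6 CPM in control. That difference of -0.30 ± 0.08 passed the test (edgeR adjusted p = 0.0194) but was below the fold minimum.

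Thbs1 was low in BAT, with 0.952, 1.86, 1.11 and 1.06 CPM (22 to 39 counts) under CR against 3.06, 3.62 and 3.12 CPM (70 to 90 counts) in control. The groups did not overlap, and it fell 2.63-fold (-1.39 ± 0.23, edgeR adjusted p = 0.00277). Tnc, tenascin-C, which adult tissues make mostly at sites of injury or load, had 0.692, 1.38, 0.616 and 0.468 CPM under CR against 4.77, 1.65 and 2.67 CPM in control. It fell 3.84-fold (-1.94 ± 0.43, edgeR adjusted p = 0.0150), and these values rest on 11 to 29 counts per CR library. When all groups of BAT were fitted together, both differences were as large, at -1.40 for Thbs1 and -1.95 for Tnc, but neither was called (edgeR adjusted p = 0.363 and 0.399). In that fit without BAT EX replicate 3, an omission chosen after the data had been seen, Tnc was called (edgeR adjusted p = 0.0127) and Thbs1 was not (0.142). Thbs2, a relative of Thbs1 known for limiting vessel growth, differed by -0.07 ± 0.28 (edgeR adjusted p = 0.879) with overlapping groups. Thbs4 had at most 28 counts in any CR or control library of BAT and was not tested there, though it was called, with CR above control, when no filter on low counts was used.

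Postn, which assists collagen cross-linking, had 64.2, 64.1, 54.4 and 56.6 CPM in BAT under CR against 88.4, 82.0 and 81.7 CPM in control. It was lower in every CR library, by -0.49 ± 0.08 (edgeR adjusted p = 0.00200), below the fold minimum. Tnxb, tenascin-X, whose loss gives lax connective tissue in people, was likewise lower, with 32.7 to 37.0 against 43.2 to 51.7 CPM (-0.37 ± 0.08, edgeR adjusted p = 0.00897). In all, 8 of the 9 members had groups that did not overlap, where 33.6% of all genes tested had such groups.

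**Figure D2:**
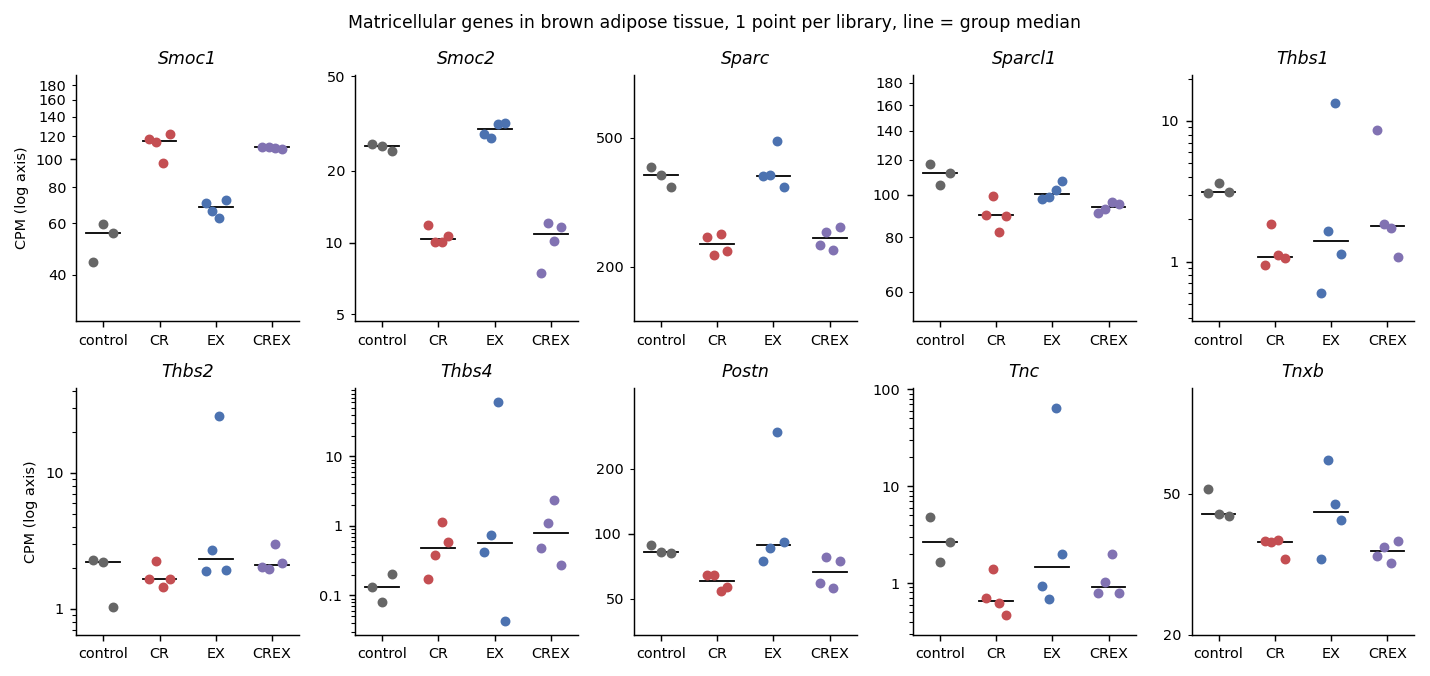
CPM of each member in the BAT libraries by group, on log axes whose range differs between panels, with 1 point per library and a line at the group median. Smoc1 sits higher and Smoc2 and Sparc lower in both groups on CR, and 1 EX library stands far above the rest for Thbs2, Thbs4, Postn and Tnc.

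In bulk tissue, fewer cells of a type and less RNA per cell cannot be told apart. In BAT, summed markers of mural cells were 301 to 325 CPM under CR against 417 to 480 CPM in control, with 4 of 10 genes called lower and none higher. The share of all genes called in this comparison was 10.7%. Endothelial sums were 289 to 374 against 420 to 453 CPM (1 of 10 called lower), macrophage sums 46.2 to 74.8 against 82.9 to 88.9 CPM (2 of 10) and glial sums 74.7 to 107 against 119 to 148 CPM (2 of 9 tested). Brown adipocyte sums were also lower, at 13477 to 14365 against 14762 to 16499 CPM (2 of 10). Fibroblast sums overlapped, at 555 to 633 against 621 to 702 CPM, with 4 of 10 genes called lower. Mesothelial sums, by contrast, were higher under CR, at 6.75 to 9.07 against 2.42 to 3.94 CPM, with the 1 gene tested called higher. That gene, Lrrn4, made up most of the sum, with a mean of 7.60 CPM under CR and 2.93 CPM in control. The study's own deconvolution gave a lower mesothelial proportion in BAT under CR. These marker sums moved with the falls of Smoc2, Sparc, Thbs1 and Tnc or with the rise of Smoc1, and their part in them was not tested. Muscle fibre RNA overlapped between both groups, at 18.3 to 1326 CPM under CR and 2.92 to 621 CPM in control.

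In trained mice, CREX against EX, 3 of the 10 members were called in BAT, against 4.48% of the 13251 genes tested. These were Smoc1, Smoc2 and Sparc, each in the direction seen in sedentary mice, and this comparison shares no library with the sedentary one. Smoc1 had 110.4, 110.3, 109.4 and 108.0 CPM in CREX against 70.6, 66.2, 62.6 and 72.2 CPM in EX. It rose 1.61-fold (log2 0.69 ± 0.06 SE, edgeR adjusted p = 0.000542). Smoc2 had 7.47, 12.1, 10.2 and 11.6 CPM in CREX against 28.6, 27.4, 31.6 and 31.7 CPM in EX. This fall was 2.89-fold (-1.53 ± 0.14, edgeR adjusted p = 0.000462), with no overlap. In this comparison 4 of the 10 members had groups that did not overlap, beside 18% of all genes tested. Sparc had 234, 256, 226 and 265 CPM in CREX against 381, 383, 489 and 352 CPM in EX, a 1.64-fold fall (-0.71 ± 0.10, edgeR adjusted p = 0.00444). All 3 calls were kept with any 1 library left out. Without both BAT EX replicate 3 and CREX replicate 3, an omission chosen after the data had been seen, Sparc was at -0.57 and fell below the fold minimum.

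For Tnc, Thbs4, Thbs2 and Postn of BAT, the comparison of CREX with EX turned on 1 library. EX replicate 3 had 64.8 CPM of Tnc where the other EX libraries had 0.691 to 1.997 CPM, and 60.8 CPM of Thbs4 where they had 0.0434 to 0.737 CPM. With it, the log2 fold changes were -3.90 ± 1.76 for Tnc, -3.88 ± 2.08 for Thbs4, -1.85 ± 1.01 for Thbs2 and -1.04 ± 0.49 for Postn, none called (edgeR adjusted p = 0.232, 0.304, 0.312 and 0.246). Without it they were -0.08, 1.40, 0.08 and -0.34, so the sign turned for Thbs2 and Thbs4. Thbs1 moved from -0.33 ± 1.16 to 1.56 and was not called either way. CREX replicate 1 was also high for Thbs1, with 8.66 CPM against 1.07 to 1.86 CPM in the other CREX libraries. With any 1 library left out, Thbs1 ran from -1.43 to 1.56. Sparcl1 (-0.12 ± 0.06) and Tnxb (-0.42 ± 0.17) differed little with or without EX replicate 3 and were not called. In trained BAT, mural sums were 292 to 352 CPM in CREX against 396 to 456 CPM in EX, and endothelial sums overlapped at 296 to 351 and 344 to 415 CPM. Glial sums were 80.7 to 107 CPM in CREX against 121 to 148 CPM in EX, and mesothelial sums were 6.32 to 9.48 against 3.87 to 6.08 CPM. The mesothelial list is the one whose sum was mostly Lrrn4 in sedentary BAT. Of the fibroblast markers 2 of 10 and of the mural markers 2 of 10 were called lower, beside 4.48% of all genes called. The part of these in the results was not tested.

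BAT EX replicate 3 itself had the highest level of the 15 BAT libraries for Sparc, Thbs1, Thbs2, Thbs4, Postn and Tnc. It was highest for 9.96% of the 13922 genes kept in BAT, and both highest and more than 10-fold above the median of the others for 0.524%, among them Thbs2, Thbs4 and Tnc. Against that median, Thbs4 was 153-fold, Tnc 66.7-fold, Thbs2 13.3-fold, Thbs1 7.88-fold, Postn 3.97-fold and Sparc 1.88-fold higher. Smoc2 (31.6 CPM), Sparcl1 (102.4 CPM) and Tnxb (46.9 CPM) stayed within the range of the other libraries. Collagen genes were high in the same library, with 355 CPM of Col1a1 against 10.9 to 39.3 CPM elsewhere and 461 CPM of Col3a1 against 31.2 to 123 CPM. Myh3, the embryonic myosin heavy chain, had 104.3 CPM where no other BAT library exceeded 0.703 CPM, and Ncam1 had 8.88 CPM against at most 1.82 CPM. Its summed macrophage markers were the highest of BAT at 145 CPM, while its muscle fibre sum of 3698 CPM was exceeded by CREX replicate 3 at 5801 CPM, where Thbs4 was at 2.36 CPM and Tnc at 1.98 CPM. The part of these cell types in the high values was not tested.

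**Figure D3:**
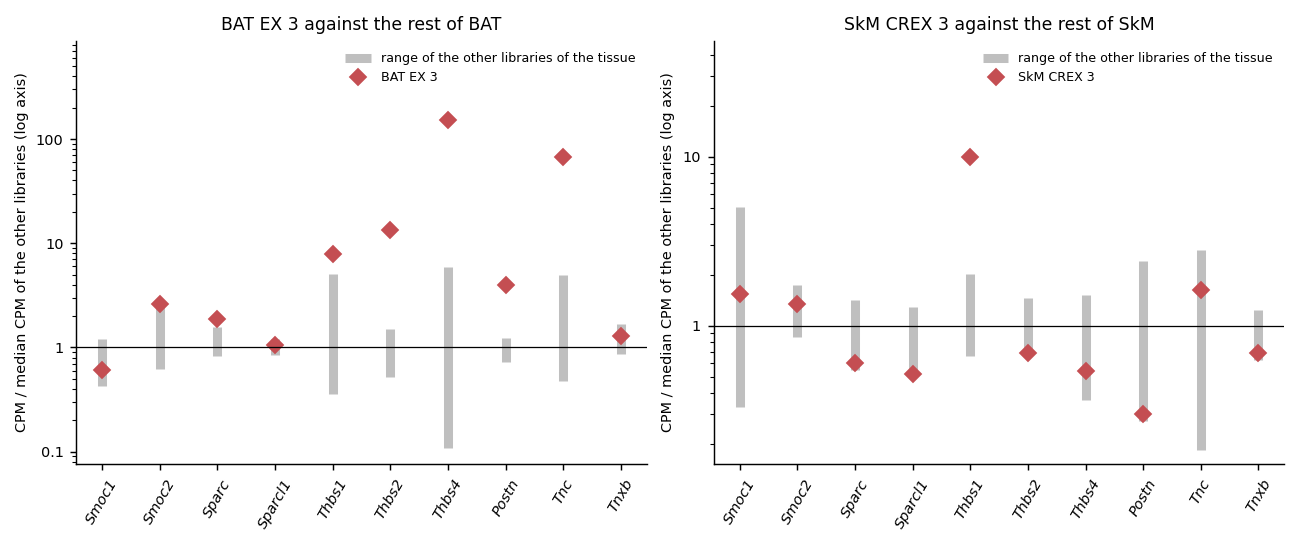
CPM of each member in BAT EX replicate 3 (left) and SkM CREX replicate 3 (right), divided by the median of the other libraries of the tissue, on a log axis. Grey bars span the other 14 and 13 libraries. Thbs4, Tnc and Thbs2 lie far above the grey bars in the BAT library, and Thbs1 does so in the SkM library.

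In SkM, CR of sedentary mice changed 3 of the 10 members, Smoc1, Sparc and Thbs4, against 9.6% of the 13173 genes tested. The median of the members was -0.07 on the log2 scale. The groups did not overlap for 3 of the 10 members, near the 27.6% of all genes tested. Sparc had 69.5, 57.6 and 70.0 CPM under CR against 124, 105, 137 and 124 CPM in control. Every CR library was below every control library, and the fall was 1.85-fold (-0.89 ± 0.13 SE, edgeR adjusted p = 0.00192). Thbs4 had 23.5, 19.6 and 22.6 CPM under CR against 43.5, 44.9, 36.2 and 29.95 CPM in control. It fell 1.75-fold without overlap (-0.81 ± 0.15, edgeR adjusted p = 0.00596), and both calls were kept without any 1 library.

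Smoc1 was near the detection limit of SkM, with 1.82, 1.25 and 2.85 CPM (32 to 75 counts) under CR against 1.11, 0.233, 0.409 and 0.621 CPM (5 to 24 counts) in control. The groups did not overlap and the rise was 3.33-fold (1.73 ± 0.44, edgeR adjusted p = 0.0261). This call was lost without CR replicate 3 or without control replicate 2, 3 or 4 (highest edgeR adjusted p = 0.0976), with log2 values from 1.36 to 2.21. Smoc2, unlike in BAT, had 89.8, 52.7 and 49.6 CPM under CR against 59.0, 48.1, 55.0 and 49.0 CPM in control, and these groups overlapped (0.29 ± 0.19, edgeR adjusted p = 0.358). The remaining 6 members overlapped as well and were not called, with log2 values from -0.31 ± 0.18 (Thbs2) to 0.12 ± 0.27 (Thbs1). Among them, Postn at 0.10 ± 0.36 and Tnc at 0.02 ± 0.52 had the widest errors, from 48 to 137 and from 6 to 23 counts per CR library. Summed endothelial markers of SkM were 202 to 241 CPM under CR against 300 to 374 CPM in control (3 of 10 called lower, beside 9.6% of all genes called). Muscle fibre sums were 126386 to 178344 against 104201 to 116608 CPM (2 of 10 called higher). Fibroblast, mural and tenocyte sums overlapped between both groups. The part of these in the falls of Sparc and Thbs4 was not tested.

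**Figure D4:**
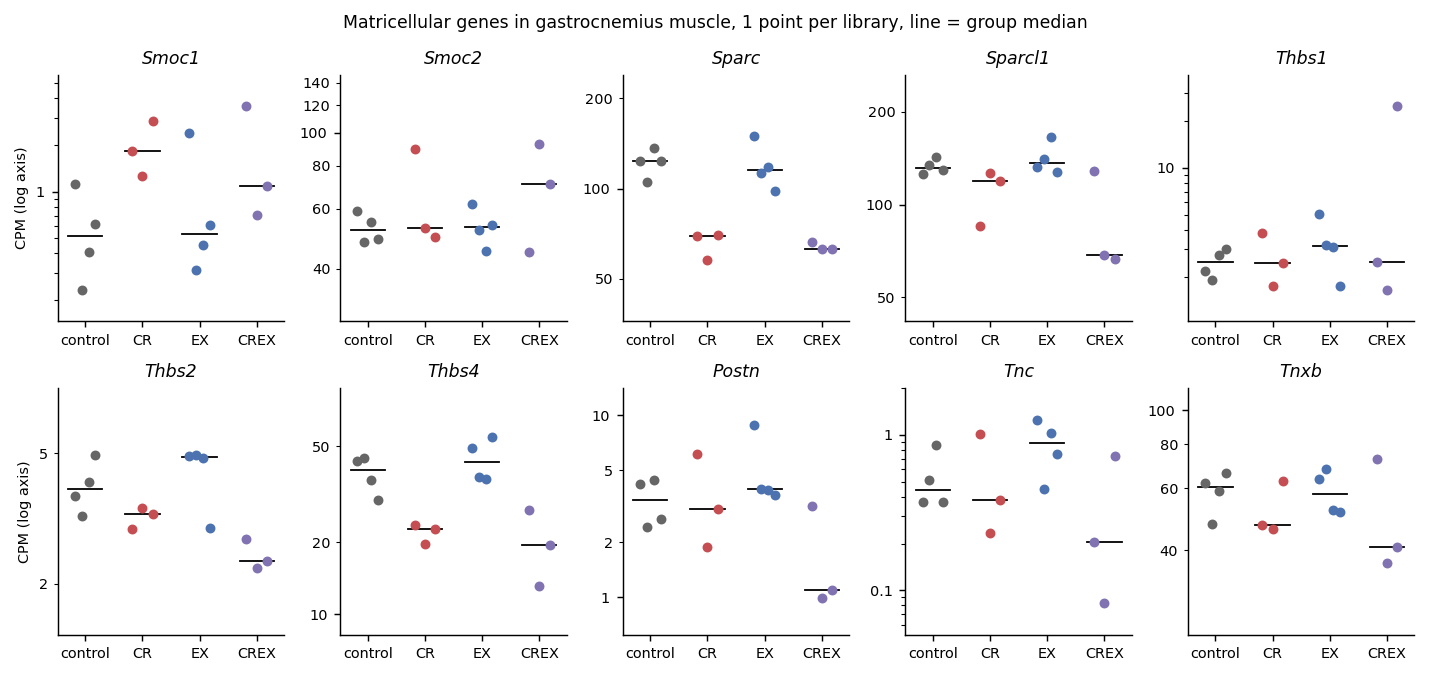
CPM of each member in the SkM libraries by group, on log axes whose range differs between panels, with 1 point per library and a line at the group median. Sparc and Thbs4 sit lower in both groups on CR, Smoc2 overlaps between all groups, and 1 CREX library stands above the rest for Thbs1.

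In trained SkM, CREX against EX, Sparc, Thbs2 and Thbs4 were called lower, 3 of the 10 members against 8.87% of the 13112 genes tested. Sparc had 66.1, 63.0 and 62.9 CPM in CREX against 150, 113, 118 and 98.3 CPM in EX, a 1.88-fold fall without overlap (-0.91 ± 0.15 SE, edgeR adjusted p = 0.00863). Thbs4 had 27.2, 13.2 and 19.4 CPM against 49.1, 37.4, 36.8 and 54.8 CPM, a 2.24-fold fall (-1.16 ± 0.26, edgeR adjusted p = 0.0256). Thbs2 had 2.73, 2.24 and 2.34 CPM against 4.89, 4.94, 4.82 and 2.96 CPM, a 1.82-fold fall (-0.86 ± 0.22, edgeR adjusted p = 0.0342). Neither group pair overlapped. In all, 4 of the 10 members had groups that did not overlap, beside 27.7% of all genes tested. The call of Sparc was kept without any 1 library, between -0.78 and -1.003. The calls of Thbs2 and Thbs4 were each lost in 5 of 7 omissions, both without CREX replicate 2 or 3 or EX replicate 1 or 2, Thbs2 also without EX replicate 3 and Thbs4 also without EX replicate 4 (highest edgeR adjusted p = 0.117 and 0.0953). Only 1 member was called without CREX replicate 2, EX replicate 1 or EX replicate 2, and 7 were called without CREX replicate 1. Among these 7, Smoc2 was called higher (0.59, edgeR adjusted p = 0.00798). That omission leaves only CREX replicates 2 and 3, the libraries with little slow fibre RNA.

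Sparcl1 had 128.6, 68.8 and 66.9 CPM in CREX against 132, 141, 165 and 128 CPM in EX (-0.69 ± 0.24, edgeR adjusted p = 0.0916). The low values were those of CREX replicates 2 and 3, the libraries with little slow fibre RNA, and their endothelial sums of 163 and 142 CPM were below the 267 CPM of CREX replicate 1 and the 295 to 373 CPM of the EX libraries. Postn had 3.18, 0.994 and 1.09 CPM against 8.85, 3.95, 3.87 and 3.66 CPM, without overlap but not called (-1.53 ± 0.52, edgeR adjusted p = 0.0843). With the slow fibre score as a covariate, an alternative chosen after the data had been seen, none of the members was called, 53 genes were called in all, and Sparc was at -0.99 (edgeR adjusted p = 0.0664). Without CREX replicates 2 and 3, which leaves 1 CREX mouse whose spread is assumed to be like that of the EX mice, none was called either, and 290 genes were called in all. There Sparc was at -0.84, Thbs4 at -0.69 and Thbs2 at -0.67. Slow fibre sums were 48.4 to 640 CPM over the 3 CREX libraries and 403 to 2036 CPM over the EX libraries. Of the tenocyte markers, 5 of 8 tested were called lower and 1 higher in CREX, beside 8.87% of all genes called. Their sums overlapped, at 13.2 to 143 against 26.1 to 52.5 CPM, and the 143 CPM was mostly Egr1, 1 of these markers. Of the endothelial markers 3 of 10 and of the fibroblast markers 2 of 10 were called lower. Without CREX replicates 2 and 3, 1 of 9 tenocyte markers and none of these endothelial and fibroblast markers was called. The part of these cell and fibre types in the falls was not tested.

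Thbs1 in SkM had 2.49 and 1.66 CPM in CREX replicates 1 and 2 and 24.8 CPM in replicate 3, which was 9.96-fold the median of the other 13 libraries. The log2 fold change of CREX against EX was 1.54 ± 0.995 with this library and -0.65 without it, and neither was called. Egr1, an early response transcription factor named here after its values were seen, was also highest in that library. It had 127.5 CPM there against 1.66 to 43.0 CPM elsewhere. The tenocyte sum of that library, 143 CPM against at most 67.1 CPM elsewhere, was mostly Egr1, which is 1 of the 10 tenocyte markers. That sum is therefore no separate observation. Without this library Tnc was called lower in CREX, at -2.56 (edgeR adjusted p = 0.0442), from 2 and 5 counts in the CREX libraries left and 10 to 28 counts in the EX libraries. Tnc was thus barely detectable in SkM.

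**Figure D5:**
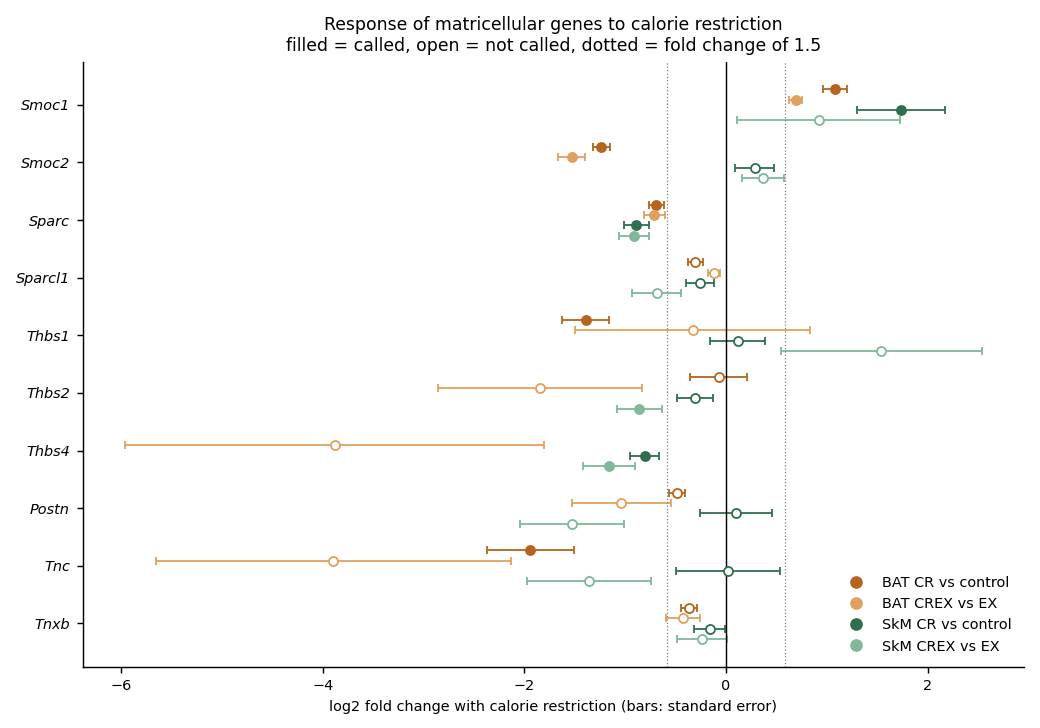
Log2 fold change of each member with CR in both tissues, sedentary (CR vs control) and trained (CREX vs EX), with bars of 1 standard error. Filled points were called, and dotted lines mark a fold change of 1.5. Sparc is filled in all 4 comparisons, and Smoc2 is filled on the left in BAT and open on the right in SkM.

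Across the 4 CR comparisons, Sparc was called lower in 4, Smoc1 higher in 3, Smoc2 lower in 2 and Thbs4 lower in 2, while Thbs1, Thbs2 and Tnc were called in 1 each. Sparcl1, Postn and Tnxb were called in none. The difference of the CR effect between BAT and SkM was tested directly. In sedentary mice, 3 of the 10 members differed, against 7.58% of the 14369 genes tested (edgeR adjusted p under 0.05). The log2 response of Smoc2 in BAT minus that in SkM was -1.52 ± 0.23 (edgeR adjusted p = 0.00116), and this call was kept without any 1 library. Thbs1 differed by -1.50 ± 0.38 (edgeR adjusted p = 0.0232), a call lost without BAT CR replicate 1 or 4 or BAT control replicate 2. Thbs4 differed by 2.85 ± 0.66 (edgeR adjusted p = 0.0177), lost without BAT control replicate 2, and the BAT side of it rests on 2 to 28 counts per library. Thbs4 passed the low-count filter of this test only through its SkM libraries and was not tested in BAT alone. Its value is therefore no support for a response in BAT. In trained mice, 1 of the 10 differed, against 5.59% of 14410 genes. It was Smoc2 again, at -1.90 ± 0.27 (edgeR adjusted p = 0.00548), kept without any 1 library. The effect on Sparc differed between tissues by 0.21 ± 0.16 in sedentary and 0.21 ± 0.19 in trained mice (edgeR adjusted p = 0.474 and 0.555).

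None of the members was called for EX. In BAT, 0 of 9 were called for EX against control, beside 0% of the 13407 genes tested, and 0 of 10 for CREX against CR, beside 0.00763% of 13112 genes. In SkM, 0 of 10 were called for EX against control, beside 0.0775% of 12907 genes, and 0 of 10 for CREX against CR, beside 0% of 13068 genes. DESeq2 called none either. At an unadjusted p under 0.05, 2 members differed, both in BAT of EX mice, where 7.26% of all genes passed in that comparison and 3.65% to 7.65% in the other 3. Smoc1 was higher by 0.35 ± 0.11 (unadjusted p = 0.00881, edgeR adjusted p = 0.514) and Smoc2 by 0.25 ± 0.08 (unadjusted p = 0.00867, edgeR adjusted p = 0.510). The EX against control values of Tnc (2.51 ± 1.95), Thbs2 (2.17 ± 1.29) and Postn (0.71 ± 0.57) in BAT turned on EX replicate 3 and were -1.31, 0.24 and 0.01 without it, and Thbs1 moved from 0.37 ± 1.13 to -1.53. By edgeR the interaction of CR and EX passed for 0 of 10 members in BAT, beside 0% of 13922 genes, and for 0 of 10 in SkM, beside 0% of 13610 genes. DESeq2 called no member either, where it called 5 genes in all in BAT and 4 in SkM. At an unadjusted p under 0.05 in edgeR, the interaction passed for Smoc1 alone in BAT (-0.39 ± 0.13, unadjusted p = 0.00937, edgeR adjusted p = 0.824) and Postn alone in SkM (-1.62 ± 0.68, unadjusted p = 0.0336, edgeR adjusted p = 0.941), beside 5.75% and 4.91% of all genes. For Sparc the interaction was -0.02 ± 0.14 in BAT and -0.01 ± 0.19 in SkM.

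Genes that act with these proteins were followed as lists chosen for their function. Of 21 collagens, proteoglycans and cross-linking enzymes, 14 were called lower and none higher in BAT under CR, with a median of -0.93, beside 10.7% of all genes called. Col6a2 fell by 1.09 on the log2 scale and Col4a1 by 0.80. In SkM under CR, 15 of the 21 were called lower and 1 higher, with a median of -0.998, beside 9.6% of all genes called. There Col3a1 fell by 2.63 and Col1a1 by 2.33. In trained BAT, 1 of the 21 was called lower with a median of -1.34, beside 4.48% of all genes called. Without EX replicate 3 it was 9 with a median of -0.71, against 2.9% of all genes called. In trained SkM, 9 were called lower with a median of -0.78, beside 8.87% of all genes called. Without CREX replicate 2 it was 5, beside 2.57% of all genes called, and without CREX replicate 3 it was 6, beside 4.5%. Without both, which leaves 1 CREX mouse, the median was -0.46. Of the genes most like Sparc over the 15 BAT libraries by Pearson correlation of log2 CPM, Fut4, Fbn1 and Col3a1 led (r = 0.96, 0.96 and 0.96), and over the 14 SkM libraries Col1a1, Mmp2 and Col1a2 led (r = 0.97, 0.97 and 0.96). These libraries share the 4 groups, and no test was made of these correlations.

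Of 24 other matricellular genes, 16 passed the low-count filter in BAT under CR, where 4 were called, beside 10.7% of all genes. There Fbln5 (-0.69 ± 0.11), Fstl1 (-0.68 ± 0.13) and 1 more were called lower and Spock2 (0.97 ± 0.17), a testican of the SPARC family, higher. In SkM, 2 of 19 tested were called under CR, beside 9.6% of all genes, and 3 of 18 in CREX against EX, beside 8.87%. Spock2 was called higher under CR (1.72 ± 0.23, edgeR adjusted p = 0.00130) and in CREX against EX (1.83 ± 0.28, edgeR adjusted p = 0.00888). Ecm1 was called lower in SkM under CR (-0.79 ± 0.21), and Igfbp7 (-0.86 ± 0.15) and Comp (-2.68 ± 0.73) were called lower in CREX. Comp is the thrombospondin of cartilage and tendon and had 0.136 against 0.900 CPM. Without CREX replicates 2 and 3, Spock2 was called (2.38), while Igfbp7 (-0.65) and Comp (-1.83) were not.

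Of the 20 receptors and binding partners, 2 of 18 tested were called lower in BAT under CR, near the 10.7% of all genes called there. They were the collagen receptor Ddr2 (-0.61 ± 0.12) and the integrin subunit Itga5 (-0.63 ± 0.13). Ddr2 was also the only one called in CREX against EX of BAT (-0.64 ± 0.14, edgeR adjusted p = 0.0256), and without EX replicate 3 it was at -0.48, below the fold minimum. In SkM under CR, 3 of 19 were lower, beside 9.6% of all genes called there. Among them were Itgb5 (-0.61 ± 0.10) and Vldlr (-0.70 ± 0.15). Itga9, an integrin subunit that binds tenascin-C, was higher (0.74 ± 0.15). In CREX against EX of SkM, Itga9 was again higher (0.87 ± 0.24) and Itgb6 lower (-1.47 ± 0.36). Without CREX replicates 2 and 3, Itgb6 was called (-0.78) and Itga9 was not (1.01). Of 25 genes of the TGF-β and BMP axis, 6 were called lower in BAT under CR, beside 10.7% of all genes called. Among them were the TGF-β co-receptor Eng (-0.74 ± 0.10) and the SMAD co-repressor Ski (-0.67 ± 0.11). In SkM under CR, Smad6 was lower (-0.96 ± 0.16) and Tgfbr3 higher (0.73 ± 0.16) of 24 tested, beside 9.6% of all genes called. Both were called in the same direction in CREX against EX (-0.93 ± 0.24 and 0.80 ± 0.14), with Tgfbr1 higher as well (0.67 ± 0.13). None of these 3 was called without CREX replicates 2 and 3, at -0.44, 0.52 and 0.39. No gene of these 4 lists was called for EX against control or for CREX against CR in either tissue.

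The pattern of the other members with most calls differed by tissue. Over the BAT libraries, Smoc1 was most like Gm40474, Atp6v1d and Rbm3 (r = 0.97, 0.96 and 0.96) and Smoc2 most like Cd79a, Klhl5 and Ptgds (r = 0.98, 0.97 and 0.96). Smoc1 and Sparc ran against each other in BAT (r = -0.91, and -0.94 without EX replicate 3). Over the SkM libraries, Smoc1 was most like Cdo1, Adipoq and Mrap (r = 0.97, 0.95 and 0.94), Smoc2 most like Eif2a, Eif3l and Hist3h2a (r = 0.92, 0.91 and 0.91), and Thbs4 most like Pdhb, Cycs and Ndufab1 (r = 0.97, 0.96 and 0.96). For Thbs4 in BAT the likeness to Ttc9, Myh3 and Ncam1 (r = 0.93, 0.93 and 0.92) was 0.83, 0.74 and 0.71 without EX replicate 3. All are descriptions over libraries of the same 4 groups.

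On GRCm38 (GENCODE M21), Smoc1 lies at chr12:81026808-81186414, Smoc2 at chr17:14279506-14404790, Sparc at chr11:55394500-55423183, Sparcl1 at chr5:104079111-104113733 and Thbs1 at chr2:118111876-118127133. Thbs2 lies at chr17:14665500-14694235, on the same chromosome as Smoc2 and on the opposite strand, Thbs4 at chr13:92751590-92794818, Postn at chr3:54361109-54391037, Tnc at chr4:63959785-64047015 and Tnxb at chr17:34670535-34719815. Antisense or other opposite-strand genes overlap Smoc2, Sparcl1, Thbs1, Tnc and Tnxb. The counting command names no strand option, which for RSEM means counting without strand. Overlap was taken over whole gene spans, and overlap of exons was not examined. Only reads from a stretch that lies in exons of both genes could not be told apart by strand.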

How the data were processed

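RNA-seq was measured in 29 libraries. Per the study's methods, the authors trimmed reads with trim-galore, aligned them to mm10 with STAR (2.7.10a) and quantified them with RSEM, for which the submitters' processing notes give version 1.2.28. The deposited values are RSEM expected counts per gene symbol, not normalized, and were rounded to whole counts. The counting command in the methods names no strand option, which in RSEM means counting without strand, and the annotation is not given in the sources used here. Of the 24770 symbols 2 were duplicated, none of them a member. Rounding and the split of reads between overlapping genes can shift members with few counts most.

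Each comparison was fitted on its own groups with the robust quasi-likelihood test of edgeR (4.0.16; limma 3.58.1, R 4.3.3) after TMM scaling and the filterByExpr filter. A gene was called at a Benjamini-Hochberg adjusted p under 0.05 over all genes tested and, between 2 groups, a fold change above 1.5. For interactions and for differences between tissues the adjusted p alone was required. Standard errors are the log2 fold change divided by the root of F. CPM were scaled with TMM factors within a tissue, and correlations used log2 CPM with a prior count of 2. Exon lengths come from GENCODE M21 because no RefSeq lengths were at hand. Labels do not say more of replicates than that they are separate samples, which the methods describe as mice. Figures were drawn with Python 3.11.15 and matplotlib 3.10.9. The test was checked on simulated data.

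All 10 members were named. Of each further list, at most the 3 called genes with the smallest p were named, and the 3 most correlated genes for the 4 members with most calls. One gene that this rule names is not reported here. The members and lists were chosen with earlier results of these data known. Alternatives were DESeq2 (1.42.0), RLE size factors, no filter or at least 10 counts in every library, no fold minimum, unadjusted p, 1 fit on all groups of a tissue, a replicate block and each library left out. Muscle fibre or slow fibre scores as covariates, both outlying libraries left out together, BAT EX replicate 3 left out of the fit on all groups, and the lists without outlying libraries were added after seeing the data.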

Additional observations from a re-analysis of the deposited data

Results flagged for a closer look

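In 10 of 50 combinations of a member and a group of 4 libraries, 1 library lay far from the other 3. For normally spread values the rule flags about 5% by chance. Its share over all genes was not counted, so the 10 flags are no result about these members. Of these flags, 5 came from the same library and are not independent. BAT EX replicate 3 stood above the other EX mice for Thbs1 (13.4 CPM), Thbs2 (26.5 CPM), Thbs4 (60.8 CPM), Postn (296 CPM) and Tnc (64.8 CPM). BAT CREX replicate 1 was high for Thbs1 (8.66 CPM) and BAT CR replicate 4 low for Tnxb (32.7 CPM). In SkM, EX replicate 1 was high for Smoc1 (2.38 CPM) and Postn (8.85 CPM), and EX replicate 4 low for Thbs2 (2.96 CPM).

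The effect of CR differed between BAT and SkM by the test of the difference itself (edgeR, adjusted p under 0.05). In sedentary mice the log2 difference, BAT minus SkM, was -1.52 for Smoc2, -1.50 for Thbs1 and 2.85 for Thbs4. Thbs4 entered that test only through its SkM counts and had too few counts to be tested in BAT alone. In trained mice it was -1.90 for Smoc2.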

How the results depend on the processing

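Of 2253 recomputed values of single members, 2198 kept their side of the threshold, 34 lost a call, 21 gained one and 0 turned around a called direction. The 2198 include values called in neither fit whose sign turned. Thbs4 in BAT, for CREX against EX, went from -3.88 to 1.40 without EX replicate 3. For CR against control in BAT, 5 members were called, 8 without the fold minimum and 3 (Smoc1, Smoc2 and Sparc) in 1 fit on all groups, or 4 in that fit without BAT EX replicate 3. For CREX against EX in SkM, 3 were called, and 5 with DESeq2, in 1 fit on all groups and at unadjusted p, 0 with the slow fibre score as a covariate and 0 without CREX replicates 2 and 3 together. With 1 library left out this count ran from 1 to 7. For the tissue difference it ran from 1 to 3 in sedentary mice, where 3 were called, and from 1 to 2 in trained mice, where 1 was called and 2 at unadjusted p. At unadjusted p the interaction passed for 1 member in BAT and 1 in SkM, with 0 called in each. Between control BAT and control SkM, 8 were called and 5 with at least 10 counts in every library, a setting that tests only 7 members. The cause of the other changes was not tested.

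Same-numbered libraries did not pair, with correlations of their deviations from -0.471 to 0.497. With the replicate block, 4 members in place of 5 were called for CR in BAT (Tnc lost, edgeR adjusted p = 0.109), 3 for CREX against EX in BAT, 3 for CR in SkM and 4 in place of 3 for CREX against EX in SkM (Postn gained). The remaining counts with the block were 0. Over all genes the block called 929 in place of 1428 and 646 in place of 1163 in the first and last of these. Over all genes DESeq2 called 39 for EX in BAT where edgeR called 0, and 52 for EX in SkM where edgeR called 10. Members with few counts per library (Thbs4 and Tnc in BAT, Smoc1 and Tnc in SkM) are limited by depth.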
